A study of Homo sapiens with 6 samples.

Results

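The set of fibroblast growth factor (FGF) ligands, receptors and partners described here held 10 genes of the 19223 gene symbols in the deposited RNA-seq table. They were chosen by name with results of this same comparison already known, and FGF1 was picked for its rise from near 0, so their differences between the groups are given as a description, without p-values. Whether each passed the threshold of a fit over all genes is stated, and nothing rests on it. The 10 genes were the ligands FGF1, FGF9 and FGF19, the receptors FGFR1, FGFR2, FGFR3 and FGFR4, the co-receptor KLB, the ligand carrier FGFBP1 and the adaptor FRS2, and 54 transcript rows of 45006 carried their names. Rows are also present for other FGF ligands and the receptor FGFRL1, which are described further below. Each gene is represented by the transcript whose mean over the 6 libraries was the highest, unless another transcript is named.

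The study measured RNA in LoVo, a human colon adenocarcinoma line that the labels describe as Dukes' type C. Cells of both groups were grown in serum-containing medium. The DCC-2036 group (n = 3) received 2.5 μM DCC-2036, the tyrosine kinase inhibitor rebastinib, and the Control group (n = 3) received vehicle. The labels give 48 h for both groups, and the comparison asks which transcripts differ after the inhibitor. Nothing in the labels says that the 3 samples of a group came from separate cultures, so the spread between them may be technical. Both groups are a single cell line.

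FGFs are secreted proteins that bind receptor tyrosine kinases together with heparan sulfate, and the activated receptor signals through the docking protein FRS2 to the RAS-ERK and PI3K pathways. FGF19 belongs to an endocrine subfamily that needs a klotho co-receptor. In the intestine FGF19 is induced by bile acids through the receptor FXR, and it acts on liver cells through FGFR4 and KLB.

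The values are read values brought to a common depth by the authors. They are not whole counts, and how many reads stand behind a value is not known. Summed over all 45006 transcript rows, their totals were 38997229, 39956227 and 40587145 in Control against 43279603, 45957597 and 48023306 in DCC-2036. Rows of 1 gene can share reads, so these are not totals of reads. Scaling to equal library totals, named below, used sums over 1 transcript per symbol instead. A gene was tested when it reached 10 in at least 3 libraries, and a log2 fold change is DCC-2036 minus Control on the log2(value + 1) scale with its standard error (SE) from limma. Adding 1 understates the change of low genes. A gene was called when its adjusted p-value over all 12725 tested genes was under 0.01.

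The treated libraries differed among themselves. Over the tested genes, the median absolute log2 difference from the Control mean was 0.50 in DCC-2036 replicate 1, 0.61 in replicate 2 and 0.74 in replicate 3, against 0.06 to 0.08 in the Control libraries. The treated values include the difference between the groups, while the Control libraries are measured from their own mean. These ranges therefore do not compare the spread within the groups. DCC-2036 replicate 3 lay farthest from Control for 8 of the 10 genes and replicate 2 for the other 2. The part of the spread among the treated libraries in each difference was not tested, and values without single libraries are given where they change a call.

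The labelled cell type was compared with marker genes. EPCAM, CDH1, KRT8, KRT18 and CDX2 had values of at least 213 in every library, and KRT8, the highest, ranged from 55603 in Control replicate 1 to 125395 in DCC-2036 replicate 3. Of the 6 that were tested, 2 were called higher and 1 lower, beside 19.2% and 22.7% of all tested genes. CDH1, the adhesion protein E-cadherin, had 1635, 1569 and 1610 in Control against 3305, 3458 and 3571 in DCC-2036, at 1.10 (SE 0.09, adjusted p = 0.000355 by limma). KRT8 was called higher at 0.84 (SE 0.14, adjusted p = 0.00287 by limma), though not without Control replicate 1, 2 or 3 or DCC-2036 replicate 2, at 0.79, 0.85, 0.89 and 0.85. Both were above Control in all treated libraries. KRT20 had 64.1, 43.6 and 51.5 in Control against 17.7, 28.0 and 24.6 in DCC-2036, at -1.15 (SE 0.21, adjusted p = 0.00427 by limma), and was not called without Control replicate 1 or 3, at -1.01 and -1.17. EPCAM and KRT18 were above Control in all treated libraries but not called, at 0.29 and 0.37 (adjusted p = 0.0379 and 0.0301 by limma), or 0.10 and 0.18 with equal library totals. CDX1 was listed at 0 in every library, and VIL1, LGALS4 and CEACAM5 did not exceed 7.23, so 4 of the 10 colon epithelial markers were listed at or near 0. Whether these 4 values match the LoVo label was not tested.

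Most markers of other cell types were low, with COL1A1 and CD68 as exceptions. The 8 fibroblast markers summed to 448, 414 and 371 in Control against 525, 456 and 554 in DCC-2036, most of it COL1A1 at 353.3 to 520.1, and the other 7 did not exceed 51.5. The 4 leukocyte markers summed to 226, 265 and 255 in Control against 209, 238 and 285 in DCC-2036, nearly all of it CD68 at 205.4 to 279.7, while PTPRC was listed at 0 in every library. The 3 endothelial markers summed to 14.2, 5.0 and 14.9 in Control against 40.2, 15.4 and 20.2 in DCC-2036, with VWF the most abundant. In bulk RNA, fewer cells of a type and less RNA per cell cannot be told apart.

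Of the 10 genes, 4 were called higher (FGF1, FGF9, FGF19 and KLB) and 1 was called lower (FGFR1). FGF1 was chosen for this difference, and FGF1 and KLB did not reach 10 in all 3 Control libraries and passed the filter through the DCC-2036 libraries, so the count is no support for a change of the group. Of all tested genes, 19.2% were called higher and 22.7% lower, that is 2442 and 2887 genes. With the values scaled to equal library totals the split was 1716 higher and 3388 lower, and scaled by median of ratios it was 2655 and 2656. Fewer genes were called without Control replicate 1 (1054 higher and 1593 lower), 2 (1000 and 1514) or 3 (992 and 1525) or without DCC-2036 replicate 2 (928 and 1708), and 3, 3, 2 and 1 of the 10 genes were then called higher and 0 lower. The groups did not overlap for 5 genes that were higher in DCC-2036 and for 1 that was lower, beside 32.9% and 38.1% of all tested genes. All 10 were tested in the fit of all libraries, but FGF1 was not tested without DCC-2036 replicate 2. With 2 libraries required to reach 10 in place of 3, 2 of the 10 genes were called higher without that library.

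**Figure D1:**
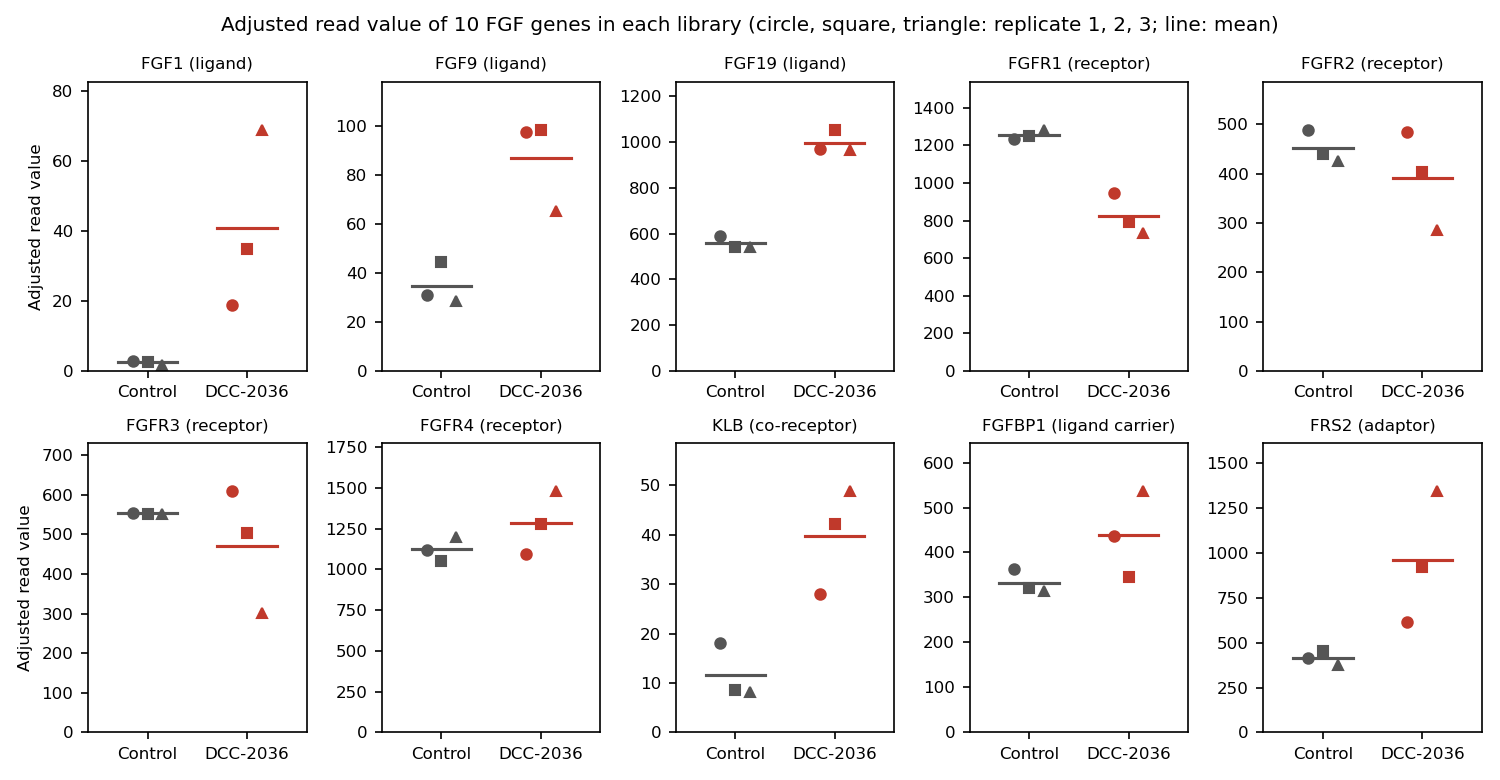
Adjusted read value (y axis, from 0, a different scale in each panel) of each gene in the 3 Control and 3 DCC-2036 libraries, with the mean as a line. FGF1, FGF9, FGF19, KLB and FRS2 lay above Control in all 3 DCC-2036 libraries, FGFR1 lay below, and the groups overlapped for the other 4 genes.

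FGF1, a ligand that binds all of the FGF receptors, had 2.83, 2.64 and 1.81 in Control against 18.9, 34.8 and 69.0 in DCC-2036. All 3 treated libraries were far above Control and also far apart from each other, with replicate 3 the highest. The means were 2.43 ± 0.54 and 40.9 ± 25.6 (SD, n = 3 each), and the log2 fold change was 3.44 (SE 0.44). When any 1 DCC-2036 library was left out, FGF1 no longer reached 10 in 3 libraries and was not tested. With 2 libraries required in place of 3, a setting chosen after seeing the data, its log2 fold change was 3.88, 3.46 and 2.97 without DCC-2036 replicate 1, 2 and 3.

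FGF1 lies on the minus strand at chr5:142592178-142698070 in GENCODE 29 (GRCh38). All of its 14 transcript rows were higher in DCC-2036 without overlap, and their ratios of means ran from 12.7 to 23.0. The rows are not independent, since GENCODE models of FGF1 share exons. Of the 14 rows, 13 were linked to 6 gene models. The highest row, NM_001257210.1, was the one linked to a model whose first exon lies at chr5:142644113-142644301. That model has 4 exons, of which 3 are shared with the model linked to NM_001257208.1.

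NM_001257210.1 exceeded NM_000800.4 by 2.12, 8.68 and 19.6 in DCC-2036 replicates 1, 2 and 3, that is by 12.7%, 33.3% and 39.6%. In Control the difference was -0.01, -0.02 and 0.94, or -0.33%, -0.74% and 107.3%, so the largest relative difference was in Control replicate 3, where the values were 1.81 and 0.87. Rows linked to 1 first exon also differed, as NM_001257208.1 had 16.7, 26.1 and 49.4 in DCC-2036 against 13.6, 22.8 and 45.8 for NM_001257211.1, and in DCC-2036 replicate 1 NM_001144892.2, of another first exon, was at 18.8. Which first exons were in use was not resolved. By comparison, 6 rows, NM_000800.4 among them, whose models begin at 3 other first exons, held identical values in every library.

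**Figure D2:**
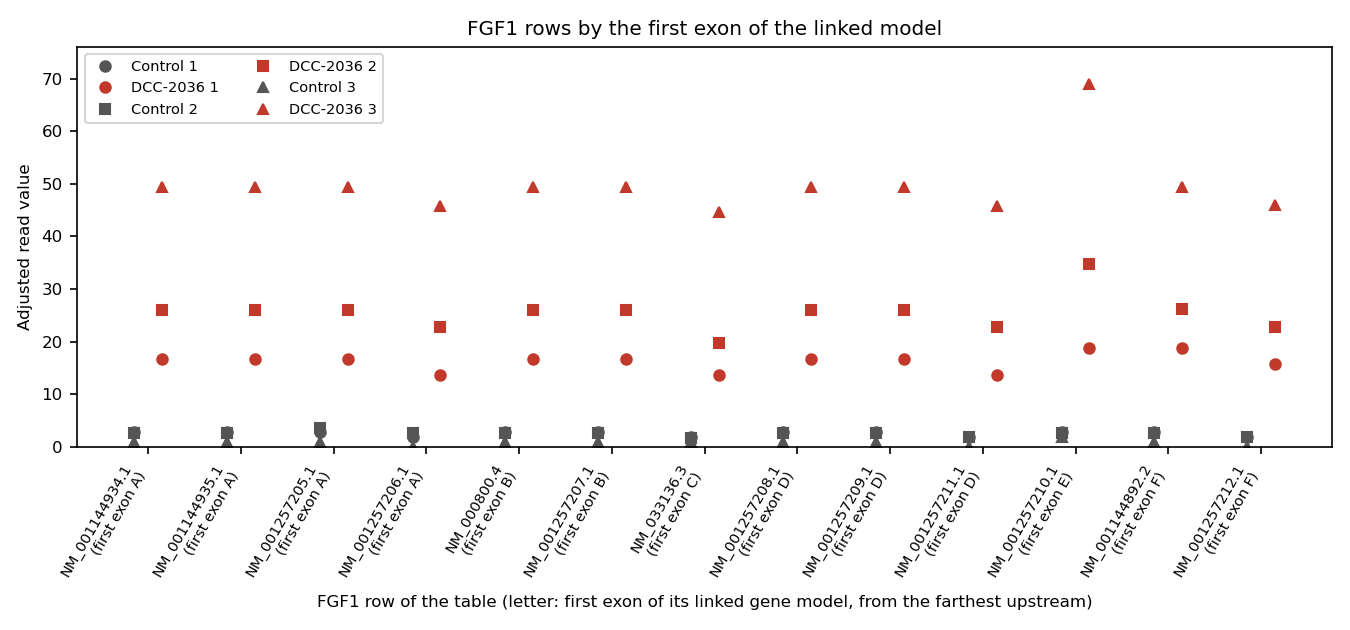
Adjusted read value (y axis) of 13 FGF1 rows in each library (points, grey for Control and red for DCC-2036), ordered by the first exon of the linked gene model, whose letter stands below each row. NM_001257210.1 reached 18.9, 34.8 and 69.0 in DCC-2036, above every other plotted row in replicates 2 and 3.

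The window around the start site inside that first exon is shown because the row linked to it had the highest mean. It is the RefSeq promoter window (GRCh38.p14) on the minus strand, from 250 bases before to 50 bases after a start site that lies 62 bases into the exon, and it is followed by the window of another FGF1 start. Capitals mark matches to GGGCGG (a motif of SP1) or TGANTCA (a motif of AP-1) on either strand.
FGF1 chr5:142644190-142644489: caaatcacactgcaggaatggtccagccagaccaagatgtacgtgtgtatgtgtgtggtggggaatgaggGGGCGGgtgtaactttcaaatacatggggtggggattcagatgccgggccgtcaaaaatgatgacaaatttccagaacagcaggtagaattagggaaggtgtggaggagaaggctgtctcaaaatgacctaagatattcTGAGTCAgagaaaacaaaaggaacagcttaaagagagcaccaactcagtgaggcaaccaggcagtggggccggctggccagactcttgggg
FGF1 chr5:142686041-142686340: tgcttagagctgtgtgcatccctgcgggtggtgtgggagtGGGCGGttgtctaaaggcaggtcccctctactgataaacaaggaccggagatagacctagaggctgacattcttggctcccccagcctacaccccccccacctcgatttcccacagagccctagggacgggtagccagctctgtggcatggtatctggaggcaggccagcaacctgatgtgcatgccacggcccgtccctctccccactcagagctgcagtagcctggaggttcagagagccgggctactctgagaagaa

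In the window at the NM_001257210.1 first exon, the match to GGGCGG began at -180 and the match to TGANTCA at -41 from the start site, and in the other window GGGCGG began at -210. Of 35116 windows in the RefSeq table, 45% held GGGCGG, 7.71% held TGANTCA, 3.62% held TGATGNAA (a motif of ATF4) and 11.5% held TATAAA, each on either strand. The motifs were picked after the values were seen, and a match describes these letters only. Of the 10 genes, 7 had at least 1 window in the table, 15 windows in all; FGF9, FGF19 and FGFR1 had none. Matches to GGGCGG numbered 8 in the FGFR3 window, 7 and 0 in the FGFR4 windows, 0, 0, 1, 0 and 5 in the FGFR2 windows and 0 in the FGFBP1 window and in the other FGF1 windows, so they also stood at genes that were not called.

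The annotation of neighbouring genes was compared with FGF1. SPRY4-AS1, a non-coding gene, overlaps FGF1 on the opposite strand, and since strand use is not given in the sources used here its reads cannot be told apart from those of FGF1. The nearest genes of the table were ARHGAP26, 72.3 kb away, and SPRY4, 266 kb away on the other side. ARHGAP26 had 1028, 935 and 978 in Control against 720, 690 and 581 in DCC-2036, with a log2 fold change of -0.57 (SE 0.12, adjusted p = 0.00694 by limma). SPRY4, an inhibitor of the ERK pathway, was not called at -0.40 (SE 0.10, adjusted p = 0.0157 by limma), but was called with equal library totals, at -0.59.

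The tested genes with centred log2 profiles most like FGF1 over the 6 libraries were HIST1H3B, NDUFA4L2 and TSC22D3, at Euclidean distances of 0.23, 0.59 and 0.68. HIST1H3B is one of a set of near-identical histone H3 genes, so its value is uncertain; it had 8.46, 9.71 and 7.32 in Control against 54.2, 91.2 and 191.3 in DCC-2036. TSC22D3, a glucocorticoid-induced gene, had 126.1, 104.3 and 118.8 in Control against 955.4, 1487 and 2069 in DCC-2036. In both genes, as in FGF1, DCC-2036 replicate 3 was the highest library and replicate 1 the lowest of the treated libraries. They were chosen for their likeness over these same libraries, so the shared order is no separate observation.

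FGF9, a secreted ligand, lies on the plus strand at chr13:21671383-21704498. It had 31.0, 44.3 and 28.4 in Control against 97.4, 98.3 and 65.2 in DCC-2036. Every treated library lay above every Control library, and replicate 3 was the lowest of the treated ones. The log2 fold change was 1.31 (SE 0.23). Without Control replicate 1, Control replicate 3 or DCC-2036 replicate 2 FGF9 was not called, at 1.25, 1.19 and 1.21, and with equal library totals it was not called at 1.12.

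FGF19, the endocrine ligand of the bile acid pathway, lies on the minus strand at chr11:69698232-69704642. It had 592, 541 and 543 in Control against 971, 1054 and 964 in DCC-2036. The treated libraries were close to each other, and their spread was small beside the distance to Control. The means were 558 ± 29 and 996 ± 50 (SD, n = 3 each), and the log2 fold change was 0.83 (SE 0.10). FGF19 was called under every scaling and filter tried and without any 1 library, though its change was smaller than 1 on the log2 scale.

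The genes most like FGF19 were PRSS53, RAB6A and STAT3, at distances of 0.07, 0.08 and 0.09 on the same measure over the 6 libraries. STAT3, a transcription factor of cytokine signalling, had 1823, 1668 and 1708 in Control against 3154, 3408 and 2937 in DCC-2036. PRSS53 had 96.9, 89.5 and 91.1 in Control against 154.6, 178.4 and 157.3 in DCC-2036.

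FGFR1, a receptor tyrosine kinase, lies on the minus strand at chr8:38400215-38468834. It had 1234, 1252 and 1283 in Control against 946, 795 and 735 in DCC-2036. All 3 treated libraries were below Control, replicate 1 the least. The log2 fold change was -0.61 (SE 0.12), and the mean in DCC-2036 was 65.7% of Control. FGFR1 was not called without Control replicate 1, 2 or 3, at -0.63, -0.62 and -0.60, or without DCC-2036 replicate 2, at -0.59, and it was also not called without a filter on low values. All 9 FGFR1 rows were lower without overlap, with ratios from 0.643 to 0.670. LETM2 overlaps FGFR1 on the opposite strand.

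FGFR2, FGFR3 and FGFR4 are related receptor tyrosine kinases and were not called. FGFR2 had 489, 440 and 425 in Control against 485, 403 and 286 in DCC-2036, with a log2 fold change of -0.24 (SE 0.20). FGFR3 had 555, 551 and 552 in Control against 609, 504 and 302 in DCC-2036, at -0.29 (SE 0.25). In both receptors replicate 3 was the low library, and without it the log2 fold change was -0.028 for FGFR2 and 0.0029 for FGFR3. Without replicate 1 they were at -0.41 and -0.50, and with equal library totals at -0.43 and -0.48. FGFR4, the receptor that FGF19 uses, had 1122, 1049 and 1197 in Control against 1096, 1278 and 1479 in DCC-2036, at 0.19 (SE 0.14), which turned to -0.0040 with equal library totals and was 0.29 without DCC-2036 replicate 1 and 0.079 without replicate 3. The groups overlapped for all 3 receptors.

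Of the 12 FGFR2 rows, 2 were lower in DCC-2036 without overlap, and the ratios of all 12 ran from 0.690 to 0.930. NM_022970.3, the epithelial IIIb form, and NM_000141.4, the IIIc form, had ratios of 0.867 and 0.870. Rows of 1 gene share most of their exons, here as in FGFR1, FGFR3, FGFR4 and FRS2, so they are not independent and these ratios do not measure the forms separately. The 3 FGFR3 rows had ratios from 0.853 to 0.893 and the 4 FGFR4 rows from 1.12 to 1.15, and the groups overlapped in each.

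Levels of different genes were compared per kb of the longest GENCODE 29 model linked to any of their rows. In Control, FGFR4 had 359.5 ± 23.6 per kb, FGFR1 212.9 ± 4.2, FGFR3 128.8 ± 0.4 and FGFR2 103.3 ± 7.7 (SD, n = 3), and each step in this order was larger than the spread. In DCC-2036 the levels were 411.5 ± 61.4, 139.8 ± 18.4, 109.8 ± 36.4 and 89.5 ± 22.9 per kb in the same order, where FGFR4 lay apart but FGFR1 and FGFR3, and FGFR3 and FGFR2, differed by less than the spread. Among the ligands, the Control levels per kb were 228.2 ± 11.7 for FGF19, 8.18 ± 2.02 for FGF9 and 0.60 ± 0.13 for FGF1, and in DCC-2036 they were 407.1 ± 20.5, 20.6 ± 4.5 and 10.1 ± 6.3. FGF9 and FGF1 then differed by more than either SD, but by less than 2 times the larger one.

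**Figure D3:**
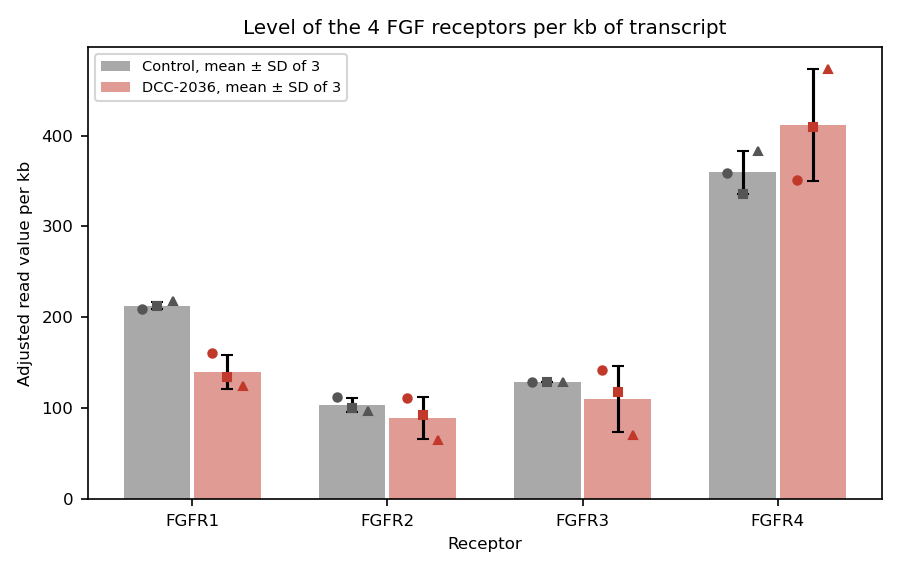
Adjusted read value per kb (y axis, from 0) of the 4 receptors, as mean ± SD of 3 libraries (bars) with each library as a point. FGFR4 was the highest in both groups, at 359.5 in Control against 411.5 in DCC-2036.

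The genes most like FGFR4 were CLDN4, GANAB and PSMD7, at distances of 0.07, 0.09 and 0.11 over the 6 libraries. CLDN4, a tight junction protein, had 2487, 2422 and 2619 in Control against 2473, 2780 and 3339 in DCC-2036. Its groups overlapped as those of FGFR4 did, which is no separate observation, since CLDN4 was chosen for its likeness over these same libraries.

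KLB, the klotho co-receptor that FGF19 requires, lies on the plus strand at chr4:39406853-39451536. It had 18.0, 8.63 and 8.17 in Control against 28.1, 42.2 and 48.8 in DCC-2036. Control replicate 1 was the high Control library and DCC-2036 replicate 1 the low treated one, and the groups did not overlap. The log2 fold change was 1.74 (SE 0.34). KLB was not called without Control replicate 2 or 3, at 1.59 and 1.55, or without DCC-2036 replicate 2 or 3, at 1.68 and 1.58, and it was also not called without a filter on low values. Its level was 1.91 ± 0.91 per kb in Control and 6.53 ± 1.74 in DCC-2036. KL, the co-receptor of FGF23, was listed at 0 in all 6 libraries.

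FGFBP1, a carrier that releases FGFs from the matrix, lies on the minus strand at chr4:15935569-15938740. It had 363, 320 and 315 in Control against 438, 346 and 536 in DCC-2036. DCC-2036 replicate 2 lay within the Control range, and FGFBP1 was not called at 0.38 (SE 0.18). It was at 0.23 without DCC-2036 replicate 3 and at 0.19 with equal library totals.

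FRS2, the docking protein that links activated FGF receptors to GRB2 and PTPN11, lies on the plus strand at chr12:69470349-69579789. It had 413, 453 and 376 in Control against 613, 921 and 1345 in DCC-2036. All 3 treated libraries lay above Control and they were spread widely. The log2 fold change was 1.14 (SE 0.28), and FRS2 was not called. Without DCC-2036 replicate 1 it was called at 1.43 and without DCC-2036 replicate 3 at 0.86, although with 2 libraries required in place of 3 the latter was not called. It was also called with limma trend and with at least 10 required in every library. All 8 FRS2 rows were higher without overlap, with ratios from 2.29 to 2.32.

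KLB and FRS2 lay above Control together with FGF1, so their windows are shown in the same way.
KLB chr4:39406680-39406979: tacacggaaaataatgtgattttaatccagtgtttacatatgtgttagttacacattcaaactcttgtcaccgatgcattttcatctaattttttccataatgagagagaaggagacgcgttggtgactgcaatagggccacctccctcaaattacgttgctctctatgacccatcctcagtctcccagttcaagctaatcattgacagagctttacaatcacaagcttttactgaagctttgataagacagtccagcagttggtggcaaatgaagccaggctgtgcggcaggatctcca
FRS2 chr12:69470138-69470437: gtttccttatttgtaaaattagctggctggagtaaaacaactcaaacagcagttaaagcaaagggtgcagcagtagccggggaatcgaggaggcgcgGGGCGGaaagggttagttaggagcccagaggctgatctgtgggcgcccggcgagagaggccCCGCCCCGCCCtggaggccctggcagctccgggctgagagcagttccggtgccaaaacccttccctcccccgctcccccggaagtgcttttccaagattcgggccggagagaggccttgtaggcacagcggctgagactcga

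The KLB window held none of the 4 motifs. The FRS2 window held 3 matches to GGGCGG or its reverse, at -153, -92 and -87 from the start site, of which the last 2 overlap by 1 letter.

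**Figure D4:**
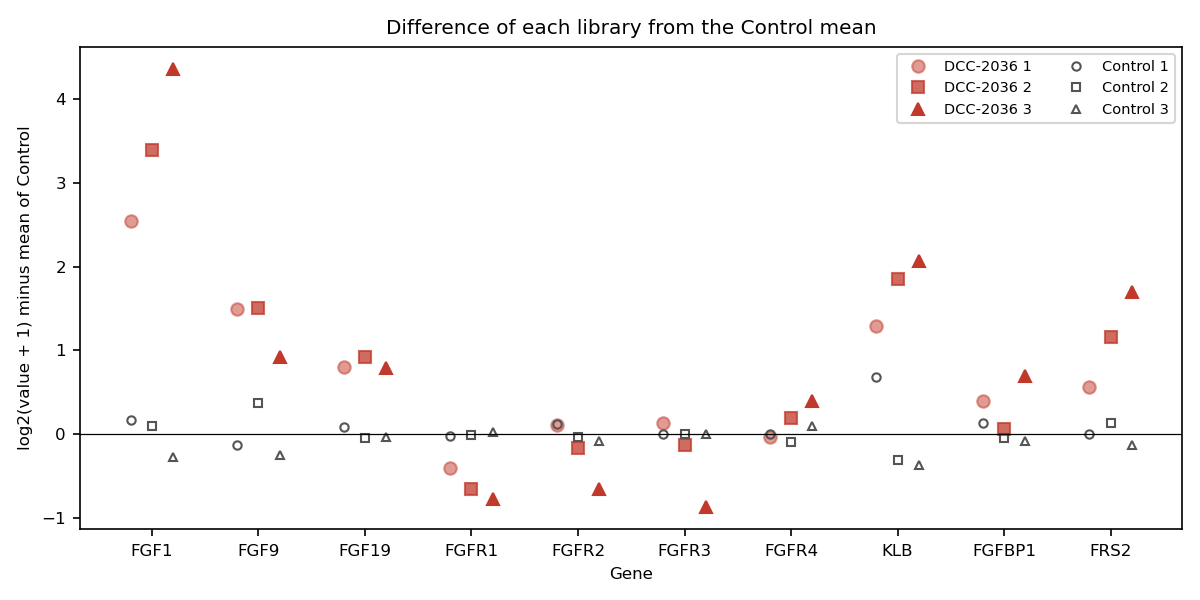
Difference of log2(value + 1) in each library from the Control mean (y axis) for each gene, with filled red points for DCC-2036 and open grey points for Control. In FGF1 and FRS2 the 3 treated libraries reached 2.55, 3.40 and 4.37 and 0.57, 1.16 and 1.70, and in FGF19 they lay between 0.79 and 0.92.

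The 88 other genes of the FGF pathway were listed by role. The lists were made with earlier results of these data known, so their counts and p-values are a description. Of the 88 genes, 58 were tested. Of these, 12 were called higher and 9 lower, that is 20.7% and 15.5%, beside 19.2% and 22.7% of all tested genes. Their median log2 fold change was -0.06, beside -0.09 for all tested genes. With equal library totals 6 were called higher and 11 lower, beside 1716 and 3388 of all 12738 genes tested in that fit. Without Control replicate 1, 2 and 3 the counts were 5, 4 and 4 higher and 4, 3 and 4 lower, and without DCC-2036 replicate 2 they were 4 and 6. Calls over all genes also fell in these fits, to 1054, 1000, 992 and 928 higher and 1593, 1514, 1525 and 1708 lower.

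Of 19 other FGF ligands, 4 were tested by limma, with a median of -0.10. Of these 4, 0 were called higher (1 was higher at an unadjusted p under 0.05) and 2 were called lower. Over all tested genes the shares were 19.2% and 22.7%. FGF2, with the highest mean over the 6 libraries, had 208.9, 182.6 and 167.3 in Control against 101.6, 87.8 and 114.6 in DCC-2036, at -0.87 (SE 0.14, adjusted p = 0.00276 by limma). FGF11, an intracellular FGF homologous factor, had 88.7, 58.6 and 54.1 in Control against 26.0, 33.5 and 33.9 in DCC-2036, at -1.06 (SE 0.21, adjusted p = 0.00609 by limma). Both were lower in all 3 treated libraries. The other tested ligands, named after their values were seen, were not called. FGF8 had 11.3, 7.71 and 15.8 in Control against 19.8, 30.2 and 25.8 in DCC-2036, at 1.09 (SE 0.27), without overlap. It was the 1 ligand higher at an unadjusted p under 0.05, but it reached 10 in 2 Control libraries and passed the filter through the treated ones, so this p is no support, nor is its call without DCC-2036 replicate 1, at 1.25. FGF18 was at 0.68 (SE 0.36, adjusted p = 0.146 by limma), and its groups overlapped; it was at 0.32 without DCC-2036 replicate 1 and at 1.03 without replicate 3. FGF21, an endocrine ligand that also uses KLB, was listed at 0 in Control and had 3.19, 7.63 and 17.0 in DCC-2036, under the filter. It was named after its values were seen, and the low ends of the groups differ in the deposited values: the DCC-2036 libraries hold 2061, 2345 and 2134 values above 0 and under 0.1 against 0 in each Control library.

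Of 7 co-receptors and binding proteins, 3 were tested, 1 was called higher and 1 lower, beside 19.2% and 22.7% of all tested genes. FGFRL1, an FGF receptor that lacks a kinase domain, had 2315, 2192 and 2372 in Control against 1143, 630 and 417 in DCC-2036. Every treated library was below Control, at -1.77 (SE 0.34, adjusted p = 0.00519 by limma). FGFBP2 had 4.74, 1.66 and 3.69 in Control against 22.8, 12.1 and 18.7 in DCC-2036, at 2.14 (SE 0.34). It was the 1 called higher and passed the filter only through the treated libraries, so its call is no support.

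Of 11 adaptors and effectors, all tested, 4 were called higher and 1 lower, beside 19.2% and 22.7% of all tested genes. The median of the list was 0.03. GRB2, the adaptor that FRS2 recruits and the gene of the list with the highest mean over the 6 libraries, had 5129, 5392 and 5682 in Control against 11217, 14023 and 17054 in DCC-2036, at 1.36 (SE 0.17, adjusted p = 0.00102 by limma). CRKL, another adaptor, had 2940, 2831 and 2710 in Control against 5443, 6979 and 8140 in DCC-2036, at 1.26 (SE 0.16, adjusted p = 0.00122 by limma). Both were higher in all 3 treated libraries. In Control PTPN11, a phosphatase that binds FRS2, was above GRB2, at 7547, 7308 and 6733. SOS2 and PLCG1 were also called higher, at 0.71 and 0.69 (adjusted p = 0.00223 and 0.00949 by limma), and were named after their values were seen. FRS3, the second docking protein of the FRS family, had 67.6, 79.1 and 83.9 in Control against 37.3, 41.0 and 26.2 in DCC-2036, at -1.14 (SE 0.19, adjusted p = 0.00285 by limma).

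Of 14 feedback inhibitors and ETS targets, 13 were tested, with a median of -0.13. Of the 13, 1 was called higher and 3 lower, beside 19.2% and 22.7% of all tested genes. DUSP6, a phosphatase of ERK, had 3390, 3190 and 3300 in Control against 1643, 1384 and 1173 in DCC-2036, at -1.25 (SE 0.14, adjusted p = 0.00084 by limma). ETV4, an ETS transcription factor, had 1112, 1099 and 1082 in Control against 486, 445 and 470 in DCC-2036, at -1.23 (SE 0.09, adjusted p = 0.000281 by limma). SPRED3, of a family that inhibits the RAS pathway, had 62.0, 62.3 and 71.0 in Control against 20.7, 9.99 and 28.8 in DCC-2036, at -1.78 (SE 0.35). It was called lower, but 2 treated libraries reached 10 and it passed the filter through Control, so its call is no support. DUSP6, ETV4 and SPRED3 were lower in all treated libraries. SPRED2, of the same family, was the 1 called higher, at 0.73 (SE 0.11, adjusted p = 0.00181 by limma), and was named after its values were seen. DUSP4 had the highest mean over the 6 libraries, though below DUSP6 in Control, and was not called at -0.08 (SE 0.11). It was at -0.27 with equal library totals and at -0.0028 when scaled by median of ratios. Without Control replicate 1 or 2 it was at -0.0081 and -0.13, and its groups overlapped. In all, 9 genes of the list were not called, of which 3 more are named after their values were seen. ETV5 was at -0.10 (SE 0.10), and its groups overlapped. SPRY2 lay above Control in all treated libraries and SPRY4 below, at 0.40 and -0.40. SPRY2 was called when scaled by median of ratios and SPRY4 with equal library totals, at 0.47 and -0.59.

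Of 24 heparan sulfate genes, 19 were tested, with a median of -0.02. Of the 19, 5 were called higher and 1 lower, beside 19.2% and 22.7% of all tested genes. NDST2, a sulfotransferase of heparan sulfate, had 171, 173 and 169 in Control against 94.3, 80.1 and 58.1 in DCC-2036, at -1.16 (SE 0.18, adjusted p = 0.00238 by limma). The 5 called higher, named after their values were seen, were the enzymes EXT2 at 0.95, NDST1 at 0.76 and GLCE at 0.55 (adjusted p = 0.000887, 0.00243 and 0.00719 by limma) and the core proteins SDC3 at 0.64 and AGRN at 0.55 (adjusted p = 0.0033 and 0.00345 by limma), each above Control in all treated libraries. GPC1, a glypican, had the highest mean over the 6 libraries and was not called at -0.18 (SE 0.21), or 0.039 without DCC-2036 replicate 3, -0.35 without replicate 1 and -0.37 with equal library totals. In DCC-2036 its mean of 3470 was below the 4050 of AGRN. The summed values of the list overlapped between the groups, from 25670 to 27471 in Control against 27451 to 32717 in DCC-2036.

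Of 5 receptor splicing regulators, all tested, 1 was called higher and 1 lower, beside 19.2% and 22.7% of all tested genes. ESRP2, which favours the epithelial form of FGFR2, had 1084, 1106 and 1146 in Control against 418, 368 and 335 in DCC-2036, at -1.58 (SE 0.12, adjusted p = 0.000271 by limma), and every treated library was below Control. ESRP1, its paralog with the same role, was named after its values were seen and was not called: it had 2787, 2703 and 2520 in Control against 2948, 2579 and 2188 in DCC-2036, at -0.06 (SE 0.14), and the groups overlapped. Without DCC-2036 replicate 1 or 3 it was at -0.17 and 0.05, and with equal library totals at -0.25. RBFOX2, the 1 called higher and named after its values were seen, was at 0.49 (SE 0.11, adjusted p = 0.00817 by limma). PTBP1, the highest in every library, was not called at -0.08 (SE 0.09). It was at -0.27 with equal library totals, -0.0031 when scaled by median of ratios and -0.046 without Control replicate 3.

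Of 8 intestinal bile acid and FXR genes, 3 were tested. By limma 0 were called, beside 19.2% called higher and 22.7% called lower of all tested genes. Of the 3, 1 was at an unadjusted p under 0.05. That gene was FABP6, the ileal bile acid binding protein, with 9.38, 7.78 and 13.0 in Control against 37.2, 29.2 and 14.7 in DCC-2036, at 1.28 (SE 0.35). Its groups did not overlap and DCC-2036 replicate 3 was the low treated library, but FABP6 reached 10 in 1 Control library and passed the filter through the treated ones, so this p is no support, nor is its call without replicate 3, at 1.65. SLC51A, a subunit of the bile acid exporter of the gut, had 12.2, 13.2 and 12.9 in Control against 14.4, 7.61 and 2.68 in DCC-2036, at -0.80 (SE 0.48). Its groups overlapped, and without DCC-2036 replicate 1 or 3 it was at -1.29 and -0.26. FABP6 and SLC51A were named after their values were seen. NR1H4, which encodes FXR, was listed at 0 in all 6 libraries, and so were SLC10A2 and MALRD1. RXRA, the partner of FXR and the highest of the list in every library, was not called at -0.05 (SE 0.25, adjusted p = 0.861 by limma), or 0.24 without DCC-2036 replicate 3, -0.24 without replicate 1 and -0.24 with equal library totals.

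The called genes named from the pathway lists by their change or highest mean, or lying beside FGF1, numbered 13. Of these, 5 were called without any 1 library: GRB2, CRKL, DUSP6, ETV4 and ESRP2. FGFRL1 was not called without Control replicate 1, 2 or 3 or DCC-2036 replicate 2, at -1.77, -1.81, -1.75 and -1.73, and the same libraries ended the call of ARHGAP26, at -0.53, -0.60, -0.57 and -0.60. Of the 6 fits that each left out 1 library, FGF11 was called in 1, without DCC-2036 replicate 3, at -1.13, and FGF2 was not called without Control replicate 1 or 2 or DCC-2036 replicate 2, at -0.79, -0.89 and -0.78. Without Control replicate 1, 2 or 3 NDST2 was not called at -1.16, -1.15 and -1.17, nor SPRED3 at -1.81, -1.81 and -1.72. FRS3 was not called without Control replicate 2 or 3, at -1.11 and -1.07. FGFBP2 was not called without Control replicate 3, at 2.23, and was not tested without a DCC-2036 library.

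The 9 called genes of the lists that were named after their values were seen were fitted in the same way. EXT2 was called without any 1 library, at 0.90 to 1.03. Of the 6 fits, SPRED2 was called in 4 (0.66 to 0.79), NDST1 in 3 (0.70 to 0.84), SDC3, AGRN and SOS2 in 2 each (0.58 to 0.72, 0.52 to 0.59 and 0.66 to 0.78) and GLCE, PLCG1 and RBFOX2 in 1 each, without DCC-2036 replicate 3, 3 and 1, at 0.62, 0.85 and 0.55. With equal library totals 6 of the 9 were not called: NDST1 at 0.57, GLCE at 0.36, SDC3 at 0.45, AGRN at 0.36, PLCG1 at 0.50 and RBFOX2 at 0.30.

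**Figure D5:**
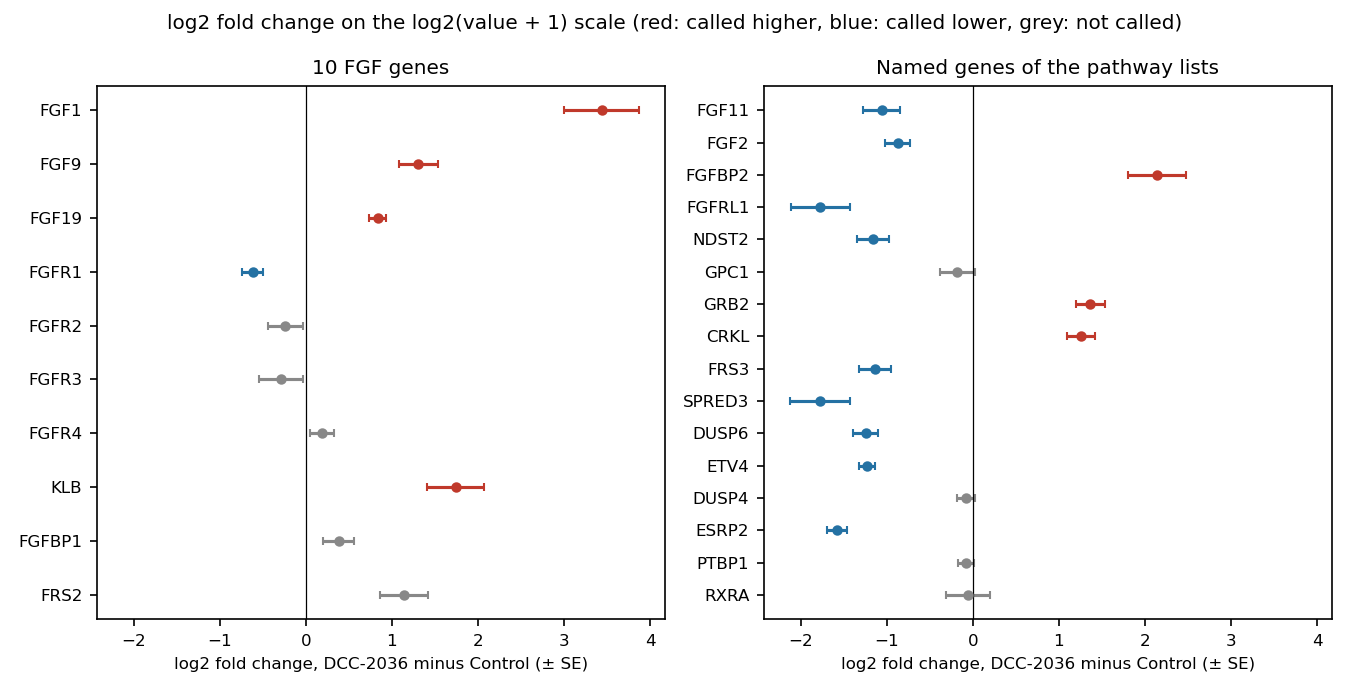
log2 fold change (x axis, DCC-2036 minus Control on the log2(value + 1) scale, bars ± SE) of the 10 genes (left) and of the named genes of the pathway lists (right), red for called higher, blue for called lower and grey for not called. FGF1 lay at 3.44 and FGFR1 at -0.61, and of the named pathway genes FGFBP2 lay at 2.14 and FGFRL1 at -1.77.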

How the data were processed

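RNA was measured by RNA-seq in 6 LoVo samples, 3 per group; per the labels, RNA came from Trizol extraction and libraries from a Nextera XT kit. The aligner, counter, build and strand use are not given in the sources used here. The treatment time is 48 h in the labels and 24 h in a legend of the paper. The deposited table holds 1 row per RefSeq transcript with a signal value per library, brought to a common depth by the authors; whole reads were not recovered. All 3 DCC-2036 columns hold 0 in the same 5697 rows and 2061, 2345 and 2134 values above 0 and under 0.1, where the Control columns hold 0 such values, so the low ends of the groups differ. The table also holds the authors' log2 fold changes, p-values and q-values, which were not used.

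For each symbol the transcript with the highest mean was kept, and genes with at least 10 in at least 3 libraries were fitted as log2(value + 1) by limma 3.58.1 in R 4.3.3, two-sided, with Benjamini-Hochberg adjustment. The fit was tested on simulated data, of which no result is given here. Tables and figures used Python 3.11.15, numpy 2.4.6, pandas 2.3.3 and matplotlib 3.10.9. Members and lists were chosen with earlier results of these data known. By rule, a gene was named from a list when its adjusted p was under 0.01 and it moved by 1 or more on the log2 scale. The gene with the highest mean in a list was also named. Other list genes in the text meet neither condition and were named outside this rule, many after their values were seen. Also named were 3 genes each with profiles nearest to FGF1, FGF19 and FGFR4 and the genes overlapping or next to FGF1. Alternatives covered scaling, filter, pseudocount, replicate block, thresholds, trend, transcripts and each library left out.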

Additional observations from a re-analysis of the deposited data

How the results depend on the processing

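Of 185 log2 fold changes of the 10 genes under 19 alternatives, 182 kept their sign. FGFR4 turned to -0.0040 with equal library totals and FGFR3 to 0.0029 without DCC-2036 replicate 3, under either filter; the cause was not tested. Equal totals moved the median of all tested genes from -0.09 to -0.28 (by -0.19), and relative to that median FGFR4 was at 0.28 under both scalings. With equal totals FGF19 was at 0.64, FGFR1 was at -0.80 and 6 other pathway genes were called higher, and with median of ratios FGF19 was at 0.91. Share of calls that were higher: 45.8% as deposited, 33.6% with equal totals and 49.99% with median of ratios.

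Whether the replicate numbers pair the samples was not settled. Same-number correlations of deviations from the group means were 0.081, -0.0352 and -0.0033, and not every library correlated best with its own number. Deviations of 3 libraries from their own mean sum to 0, so these correlations cannot exclude a pairing. With a replicate block 1202 genes were called higher and 1909 lower, 3 members higher and 0 lower (FGFR1 and KLB were not called), and 4 and 5 other pathway genes. With no filter 3 members were called higher and 0 lower, beside 1749 and 2154 of 16667 genes. With all transcripts as rows 6379 and 7250 rows were called, since more rows were tested. At an adjusted p under 0.05, 21 and 15 pathway genes were called, beside 3630 and 4290 of the 12725 tested genes. When a change of 1 or more on the log2 scale was also required, 944 genes were called higher and 1930 lower (32.9% of the calls higher), 0 members lower, and 3 pathway genes higher and 8 lower.

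Leaving out 1 library, with fewer samples in the fit, gave 928 to 2675 genes called higher and 1514 to 3507 lower, 1 to 4 members higher and 0 to 1 lower, 4 to 12 pathway genes higher and 3 to 12 lower, and -0.50 to 0.0029 for FGFR3. When only 2 libraries had to reach 10, chosen after seeing the data, leaving out a DCC-2036 library gave 841 to 2718 genes higher, 2 to 5 members higher and 4 to 13 pathway genes higher. At least 10 in every library left FGF1 and KLB untested. The depth is unknown, which limits low genes such as FGF1 in Control.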
